A study of Homo sapiens with 18 samples.

Results

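The ephrin ligands were followed as a family of 8 genes, EFNA1, EFNA2, EFNA3, EFNA4, EFNA5, EFNB1, EFNB2 and EFNB3, taken by symbol from 55765 genes counted in OVCAR3 cells. All 8 had a row in both count tables, and all 8 had enough reads to be tested in both. OVCAR3 is an established cell line from a high-grade serous ovarian carcinoma, kept here in medium with 2% serum. RNA from 18 libraries was sequenced, 3 in each of 6 groups, in 2 series of 9. The first series compared human IgA of no particular specificity, human IgG of no particular specificity and untreated cells. The second series compared IgA against BDNF, a neurotrophin, IgA against TSPAN7, a tetraspanin of the cell surface, and untreated cells of its own. Antibodies were given at 0.5 µg/ml for 24 h according to the sample labels, while another description of the experiment gives a shorter incubation. The study asked how tumour cells respond to IgA that binds and crosses them. All groups are of 1 cell line. The labels do not say whether replicates were separate cultures, while the study describes those of the first series as experiments, and p-values measure the spread between these libraries, which may be technical. Each series has its own count table and was scaled on its own, so groups were tested within a series only. No non-specific IgA was included in the second series, so the antigen of the antibody and its class cannot be told apart there.

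Ephrins are membrane-bound ligands of the Eph receptor tyrosine kinases. Ephrin-A proteins are held in the membrane by a glycosylphosphatidylinositol anchor and mainly bind EphA receptors, whereas ephrin-B proteins cross the membrane, carry a cytoplasmic tail and mainly bind EphB receptors, with EphA4 binding both classes. Contact between a ligand on one cell and a receptor on its neighbour signals into both cells, and the pathway is known for boundary formation, cell repulsion, adhesion and blood vessel growth. In epithelial tumours the ephrin-A1 and EphA2 pair is among the best studied.

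The genes lie on 6 chromosomes of GRCh37 (GENCODE annotation). EFNA4, EFNA3 and EFNA1 sit next to one another on the forward strand of chromosome 1, at 155036213 to 155042029, 155051313 to 155060014 and 155100352 to 155107375. EFNB1 is at 68048864 to 68062003 on the forward strand of chromosome X. EFNB2 is at 107142093 to 107188010 on the reverse strand of chromosome 13. EFNA5 is at 106712595 to 107006638 on the reverse strand of chromosome 5. EFNA2 is at 1285872 to 1301430 on chromosome 19 and EFNB3 at 7608520 to 7614690 on chromosome 17, both on the forward strand. A read-through gene that joins EFNA4 to EFNA3 shares 43.9% of the exon bases of EFNA3 and 15% of those of EFNA4. An antisense long non-coding RNA gene covers 36.4% of the exon bases of EFNB2. The read-through gene lies on the same strand as EFNA3 and EFNA4, so strand alone cannot separate their reads. Whether the counting used strand is not stated, so reads of EFNB2 and its antisense gene cannot be told apart either. Levels per length below use all exon bases of these genes and carry this limit.

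The promoters of EFNA1, EFNB1 and EFNB2 are shown because these genes carry the responses described below, EFNA1 and EFNB1 rising and EFNB2 falling after non-specific IgA. Sequences are from RefSeq on GRCh38.p14, written 5′ to 3′ on the strand of the gene, from 250 bases before to 50 bases after the annotated start. Capitals mark matches to the GC box GGGCGG on either strand, where a match on the opposite strand reads CCGCCC and neighbouring matches may overlap.
EFNA1 (chr1:155127626-155127925, forward strand): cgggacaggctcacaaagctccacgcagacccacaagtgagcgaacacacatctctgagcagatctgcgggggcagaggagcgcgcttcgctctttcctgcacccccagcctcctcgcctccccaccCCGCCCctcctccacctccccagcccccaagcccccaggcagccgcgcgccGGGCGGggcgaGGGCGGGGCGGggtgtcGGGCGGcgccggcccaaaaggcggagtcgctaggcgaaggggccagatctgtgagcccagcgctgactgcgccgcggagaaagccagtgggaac
EFNB1 (chrX:68828771-68829070, forward strand): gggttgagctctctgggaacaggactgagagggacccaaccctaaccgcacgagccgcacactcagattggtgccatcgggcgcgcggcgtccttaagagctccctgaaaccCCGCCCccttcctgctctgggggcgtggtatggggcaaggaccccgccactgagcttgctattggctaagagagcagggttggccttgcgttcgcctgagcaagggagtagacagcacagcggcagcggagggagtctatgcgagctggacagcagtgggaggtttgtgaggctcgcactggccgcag
EFNB2 (chr13:106535613-106535912, reverse strand): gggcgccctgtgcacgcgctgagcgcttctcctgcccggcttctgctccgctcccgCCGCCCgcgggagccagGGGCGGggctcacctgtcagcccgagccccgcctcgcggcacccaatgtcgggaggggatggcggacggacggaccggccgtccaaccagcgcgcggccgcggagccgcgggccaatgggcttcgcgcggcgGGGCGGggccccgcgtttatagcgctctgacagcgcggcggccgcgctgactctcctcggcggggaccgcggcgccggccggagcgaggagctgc

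A promoter was matched for 7 of the 8 genes, all but EFNB3. These windows were rich in G and C, at 71.7% for EFNA1, 63.7% for EFNB1 and 78.7% for EFNB2, with EFNA4 lowest at 58.3%. Each of the 7 held at least 1 GC box, from 1 in EFNB1 to 5 in EFNA1, and 45% of 35116 promoters of the same length hold one. None of the 7 matched the AP-1 motif TGANTCA, the interferon-stimulated response element or the ETS motif CCGGAAGT, which 7.71%, 3.57% and 4.14% of all promoters hold. The NF-kB motif was found in EFNA2 alone among the 7, against 5.91% of all promoters. These are matches of letters in one window, on both strands, and not measured binding.

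A library held 27920733 to 42371474 counts in series 1 and 39254350 to 47381836 in series 2. IgA replicate 3 stood apart with 19.1% of its counts from the mitochondrial genome, against 5.75% to 8.32% in the other libraries of its series. The common dispersion between replicates was 0.0307 in the first and 0.003028 in the second series, where smaller differences could be resolved. All 8 markers of serous ovarian carcinoma (PAX8, WT1, MUC16, EPCAM, KRT7, KRT8, KRT18 and MSLN) were counted in all libraries, with WT1 at 692 counts or more. Summed normalised counts of 8 B and plasma cell markers were 4516 to 7067 in the IgA libraries and 2537 to 3529 in the IgG and untreated libraries of that series. Nearly all of that sum was SDC1, syndecan-1, which epithelial cells also make, at 2303 to 4706 counts. IGHA1 and IGHG1 were at 0 in all libraries, and MS4A1 never exceeded 2 counts. A fibroblast list summed to 2386 to 4850 in the IgA libraries and 2061 to 2455 in the other libraries of that series, from COL1A1 and COL1A2, while COL3A1, PDGFRB and DCN never exceeded 16 counts in either series. Leukocyte and endothelial lists summed to at most 89.6 and 69.0, where 3 of the 4 endothelial markers were found and PECAM1 was not. In the second series the B and plasma cell sum was 6151 to 7034 and the fibroblast sum 2861 to 3793. The part of these genes and of IgA replicate 3 in the results below was not tested, other than by leaving that library out for the 8 ligands. Receptors, partners and similar genes were not examined without it.

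In untreated cells EFNA5 was the most abundant ephrin ligand transcript per length in both series, and EFNA2 the least abundant. Levels are given as CPM per kilobase of exon, where CPM scales each library to a common effective size, so that genes can be compared. They are means ± SD of 3 libraries. In the first series EFNA5 stood at 16.5 ± 0.849. EFNA1 (11.6 ± 0.204) and EFNB2 (11.4 ± 0.321) followed and their libraries overlapped. EFNA4 was at 9.42 ± 1.45 and EFNB1 at 4.73 ± 0.607, each without overlap with its neighbours. EFNB3 (3.07 ± 0.591) and EFNA3 (2.36 ± 0.410) overlapped, and EFNA2 was at 0.370 ± 0.0655. The highest mean was 44.7 times the lowest.

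The order in the untreated cells of the second series differed in the middle ranks. EFNA5 was again first at 16.1 ± 0.0360. EFNB2 (12.8 ± 0.657) and EFNB1 (11.9 ± 0.548) came next and overlapped, so that both ephrin-B genes stood above EFNA1. EFNA1 (8.29 ± 0.655) overlapped EFNA4 (7.40 ± 1.04). EFNA3 at 3.13 ± 0.462, EFNB3 at 1.69 ± 0.198 and EFNA2 at 0.865 ± 0.0110 closed the order, each clear of the next. The span from highest to lowest was 18.7-fold. EFNB1 thus had rank 5 in the first series and rank 3 in the second, with all untreated libraries of the second series (11.4 to 12.5) above all those of the first (4.06 to 5.24). This difference between series was not tested, since the series are separate count tables. Taking the longest transcript as the length left all ranks as they were in both series, but not all separations. In the first series EFNA1 libraries then stood at 16.1 to 16.6, clear of EFNB2 (11.2 to 11.8). In the second series EFNA1 stood at 10.5 to 12.3. There it overlapped EFNB1 (11.4 to 12.5) and EFNB2 (12.1 to 13.4) and was clear of EFNA4 (6.29 to 8.34).

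**Figure D1:**
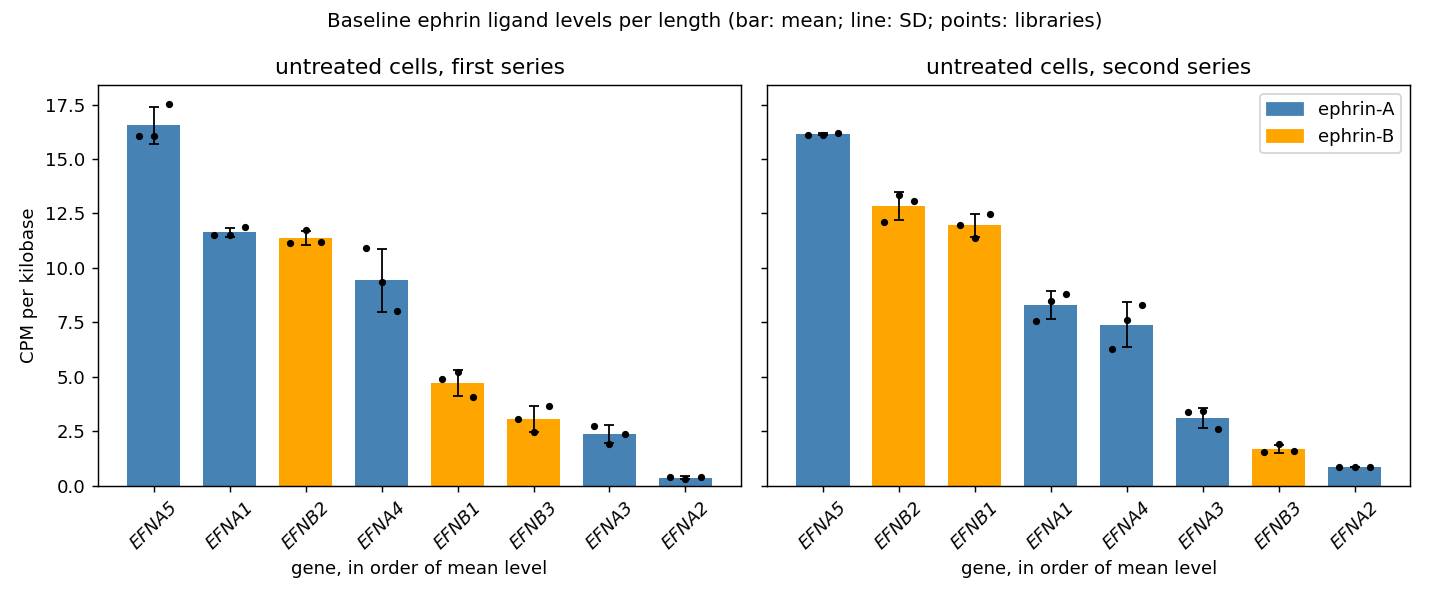
Levels of the 8 ephrin ligand genes in untreated OVCAR3 cells, in CPM per kilobase on a linear axis starting at 0, with the first series on the left and the second on the right. Bars are means of 3 libraries, lines are SD and points are libraries. EFNA5 leads in both panels (16.5 and 16.1), and EFNB1 stands at 4.73 on the left and 11.9 on the right.

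EFNB1 was the member that rose with both antigen-specific antibodies. BDNF IgA raised 2 of the 8 ligands, EFNB1 and EFNA1, and lowered none, where 7.67% of all 18732 genes tested were called in that comparison (4.49% higher and 3.18% lower). TSPAN7 IgA raised 1 of 8, EFNB1, and lowered none, where 8.54% of all genes were called (4.46% higher and 4.08% lower). The median log2 fold change of the 8 was 0.055 with BDNF IgA and 0.018 with TSPAN7 IgA, beside 0.0022 and -0.00072 over all genes. Both comparisons use the same 3 untreated libraries. Calls are from edgeR's quasi-likelihood test at an adjusted p under 0.05, adjusted over all genes tested.

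EFNB1 encodes ephrin-B1, a transmembrane ligand with a signalling tail. Its normalised read counts were 1678, 1594 and 1747 in untreated cells. With BDNF IgA they were 1993, 1918 and 2218, and with TSPAN7 IgA 2096, 1985 and 2118. Every antibody-treated library lay above every untreated one, and the antibody groups overlapped each other. In RNA from whole cultures, more cells that express a gene and more RNA per cell cannot be told apart. The log2 fold change against untreated cells was 0.29 (SE 0.0587, 95% interval 0.17 to 0.41, edgeR adjusted p = 0.00353) for BDNF IgA. TSPAN7 IgA gave 0.30 (SE 0.0588, 95% interval 0.18 to 0.43, edgeR adjusted p = 0.00206). Leaving out any 1 of the 6 libraries compared kept both calls, with log2 fold changes from 0.22 to 0.33 and from 0.27 to 0.34. Between the antibodies the difference was 0.016 on the log2 scale, with an interval of -0.11 to 0.14.

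EFNB2 encodes ephrin-B2, known as the arterial ligand of EphB4 on veins. Untreated libraries of the second series held 2567, 2831 and 2776 normalised counts, BDNF IgA libraries 2686, 2772 and 2538, and TSPAN7 IgA libraries 2757, 2771 and 2657. The groups overlapped throughout. Log2 fold changes were -0.032 (95% interval -0.14 to 0.073) and 0.0019 (-0.10 to 0.11), and the sign of the second changed under 3 other ways of processing. EFNB3, the ephrin-B of the midline of the nervous system, was at 213, 261 and 216 in untreated cells. BDNF IgA libraries held 281, 259 and 319, overlapping untreated cells through replicate 2, and TSPAN7 IgA libraries 237, 241 and 227. Its log2 fold changes were 0.32 (SE 0.114) and 0.034 (SE 0.116) in that order, with edgeR adjusted p = 0.0914 and 0.908. Without BDNF IgA replicate 2 the first was 0.38 and passed the test (edgeR adjusted p = 0.0301).

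EFNA1 encodes ephrin-A1, a ligand of EphA2 first found as a gene induced by tumour necrosis factor. It was at 694, 779 and 810.0 normalised counts in untreated cells of the second series. BDNF IgA libraries held 1006, 752 and 1129, and TSPAN7 IgA libraries 819.9, 766 and 814. Replicates 1 and 3 with BDNF IgA lay above all untreated libraries, whereas replicate 2 lay among them. The log2 fold change with BDNF IgA was 0.34 (SE 0.102, 95% interval 0.13 to 0.55, edgeR adjusted p = 0.0449). That call was lost in 5 of the 6 fits that left out 1 library (adjusted p up to 0.288) and with only the 6 libraries compared (adjusted p = 0.0879). It held without BDNF IgA replicate 2, at 0.49. For TSPAN7 IgA the log2 fold change was 0.072 (-0.14 to 0.29, edgeR adjusted p = 0.751).

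The remaining ephrin-A genes passed no test in the second series. EFNA2, a ligand known from the wiring of the visual system, was the scarcest, with 87 to 98 reads in untreated libraries, so its values are the least precise. Its normalised counts were 90.2, 88.0 and 88.5 in untreated cells, 59.6, 55.9 and 73.2 with BDNF IgA, and 84.9, 46.4 and 47.6 with TSPAN7 IgA. All antibody-treated libraries lay below all untreated ones, with TSPAN7 IgA replicate 1 close to them. Log2 fold changes were -0.50 (SE 0.219, edgeR adjusted p = 0.184) for BDNF IgA and -0.57 (SE 0.222, edgeR adjusted p = 0.126) for TSPAN7 IgA. Without TSPAN7 IgA replicate 1 the second became -0.92 and passed the test (edgeR adjusted p = 0.0144).

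EFNA3, the ephrin-A encoded between EFNA4 and EFNA1, ranged from 214 to 282 normalised counts in untreated cells, 235 to 317 with BDNF IgA and 220.3 to 241 with TSPAN7 IgA. EFNA4, a ligand also made in soluble form from an alternative transcript, ranged from 334 to 443, 358 to 419 and 394 to 455 in the same groups. Neither separated the groups, and the log2 fold changes lay between -0.16 and 0.14. EFNA5, the most abundant member and a ligand known from axon guidance, held 3920.3, 3919 and 3935 in untreated cells. Its counts were 3803, 3638 and 3823 with BDNF IgA and 3689.9, 3741 and 3901 with TSPAN7 IgA. Both treated groups lay wholly below the untreated one, by log2 fold changes of -0.064 and -0.055 (edgeR adjusted p = 0.431 and 0.504). In all, 3 of 8 members did not overlap with untreated cells under BDNF IgA and 3 of 8 under TSPAN7 IgA, beside 24.8% and 28.4% of all genes tested.

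Between TSPAN7 IgA and BDNF IgA edgeR called 0 of 8 ligands, where 7.92% of all genes were called (1484, or 3.42% higher and 4.5% lower, with 4222 at an unadjusted p under 0.05). DESeq2 also called 0. At an unadjusted p under 0.05 stood 3 members, all lower with TSPAN7 IgA: EFNA1 at -0.27 (edgeR adjusted p = 0.116), EFNA3 at -0.30 (0.169) and EFNB3 at -0.28 (0.135), as log2 differences. EFNB3 alone did not overlap between these groups, where 23.6% of all genes did not. The same 3 genes passed the test when BDNF IgA replicate 2 was left out, with edgeR adjusted p from 0.000207 to 0.0443. Calls among all genes rose in that fit too, to 1554 higher and 1722 lower of 19179 tested. With all libraries this contrast of the antibodies had 641 and 843 of 18732. Against untreated cells, BDNF IgA without its replicate 2 had 1505 genes called higher and 1293 lower, compared with 841 and 596 with it.

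**Figure D2:**
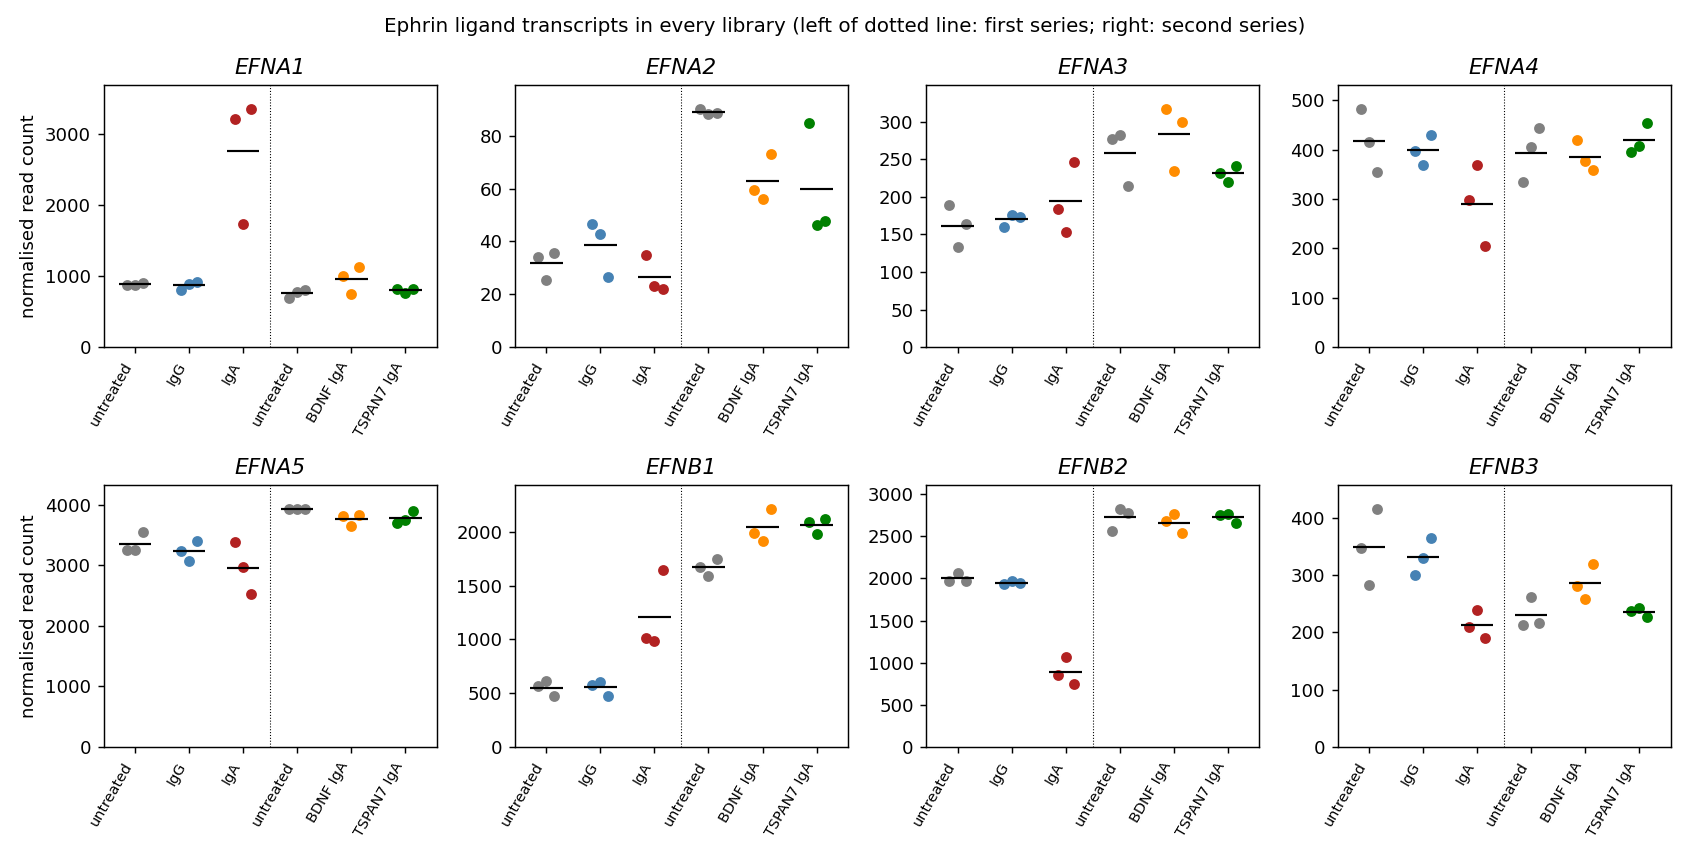
Normalised read counts of each ephrin ligand gene in all 18 libraries, on linear axes from 0, one panel per gene. Points are libraries and horizontal lines are group means, with the first series left of the dotted line and the second right of it, each scaled on its own. EFNB1 is higher in all treated libraries of the second series (1918 to 2218) than in its untreated libraries (1594 to 1747), and EFNB2 is at 744 to 1065 with non-specific IgA against 1937 to 2069.9 in the other libraries of the first series.

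Non-specific IgA raised some members of the family and lowered others. Against IgG, edgeR called 2 of 8 ligands higher (EFNA1 and EFNB1) and 2 lower (EFNB2 and EFNB3), where 24.2% of all 18012 genes tested were called (12.6% higher and 11.6% lower). Against untreated cells the same 4 genes were called in the same directions, where 25% of all genes were called (12.9% higher and 12.1% lower). Those comparisons share the 3 IgA libraries. Under library totals alone the split of all called genes shifted towards lower, from 2265 higher and 2095 lower to 873 and 3631 against IgG, while the 4 called ligands kept their directions. The median log2 fold change of the 8 was -0.29 against IgG and -0.21 against untreated cells, beside -0.015 and -0.012 over all genes. Groups did not overlap for 5 of 8 members against IgG and 4 of 8 against untreated cells, beside 40.3% and 39.9% of all genes. The paper reports that ephrins which promote tumours went down with IgA, whereas EFNA1 and EFNB1 were called higher here. EFNB2, EFNB3 and EFNA4 were among the genes the study displayed from these libraries, so their direction is not independent evidence. The other members come from the same libraries and are not independent of the study either.

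EFNA1 was at 3217, 1737 and 3360 normalised counts in the IgA libraries. IgG libraries held 809, 897 and 919, and untreated libraries 879, 879 and 906. The IgA libraries were all above the rest, with replicate 2 the nearest. The log2 fold change was 1.66 (SE 0.195, edgeR adjusted p = 1.04e-04) against IgG and 1.64 (SE 0.194, edgeR adjusted p = 1.09e-04) against untreated cells. Without IgA replicate 3 the value against untreated cells was 1.48, and the call against IgG also held (edgeR adjusted p = 7.76e-05). On the per-length scale EFNA1 rose from 11.6 ± 0.204 in untreated cells to 36.3 ± 11.8, above the 14.6 ± 2.09 of EFNA5 in the same libraries.

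EFNB1 was at 1011, 984 and 1643 with IgA, 576, 605 and 478 with IgG, and 569, 609.5 and 472 in untreated cells. All IgA libraries lay above the others, and replicate 3, the library with the high mitochondrial share, was the highest. The log2 fold change against IgG was 1.13 (SE 0.192, edgeR adjusted p = 0.00136) and stood at 0.85 without that library (edgeR adjusted p = 7.97e-04). Against untreated cells the values were 1.14 (SE 0.192, edgeR adjusted p = 0.00116) and 0.86.

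EFNB2 moved the other way, from 1937, 1967 and 1948 with IgG and 1969, 2069.9 and 1975 in untreated cells to 849, 1065 and 744 with IgA. No IgA library came near the others. The log2 fold change was -1.14 against IgG (SE 0.124, edgeR adjusted p = 6.64e-05) and -1.17 against untreated cells (SE 0.124, edgeR adjusted p = 4.63e-05). Without IgA replicate 3 these values were -1.03 and -1.07. EFNB3 was at 209.7, 239 and 189.6 with IgA, 299.6, 329.6 and 365 with IgG, and 347, 282 and 416 in untreated cells. Its log2 fold change was -0.63 against IgG (SE 0.182, edgeR adjusted p = 0.0234) and -0.71 against untreated cells (SE 0.182, edgeR adjusted p = 0.0134). Without IgA replicate 3 it stood at -0.56 and -0.63, still called. The first call was lost when IgA replicate 1 or either of IgG replicates 2 and 3 was left out (adjusted p = 0.0540, 0.0673 and 0.0872), and the second without untreated replicate 3 (adjusted p = 0.0739).

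EFNA4 was at 297, 369 and 205 normalised counts with IgA, below IgG (398, 369.7 and 430.4) by a narrow margin and overlapping untreated cells (483, 415 and 354). Its log2 fold changes were -0.45 (edgeR adjusted p = 0.122) and -0.51 (edgeR adjusted p = 0.0797). Against untreated cells it passed with DESeq2 (adjusted p = 0.0472), with library totals as the only scaling (0.0458), without a filter on low counts (0.0430) and without IgA replicate 2 (0.0190). Against IgG it passed without IgA replicate 2, at -0.66 (edgeR adjusted p = 0.0286). EFNA5 (-0.13 and -0.18), EFNA3 (0.19 and 0.26) and EFNA2 (-0.53 and -0.24) were not called against IgG or untreated cells, and the first value of EFNA3 became -0.065 with library totals as the only scaling. EFNA2 had 14 to 50 reads a library in that series, and its intervals spanned -1.41 to 0.35 and -1.13 to 0.64.

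IgG against untreated cells gave 0 calls among the 8, and 0 of all genes, that is 0%, with edgeR, and 0 members with DESeq2. At an unadjusted p under 0.05 stood 0 members and 89 genes in all. Log2 fold changes of the 8 ranged from -0.072 to 0.29. EFNB2 was the 1 member without overlap, just lower with IgG, where 6.75% of all genes did not overlap. The 95% interval for EFNA1 was -0.44 to 0.39 and for EFNB2 -0.30 to 0.22.

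**Figure D3:**
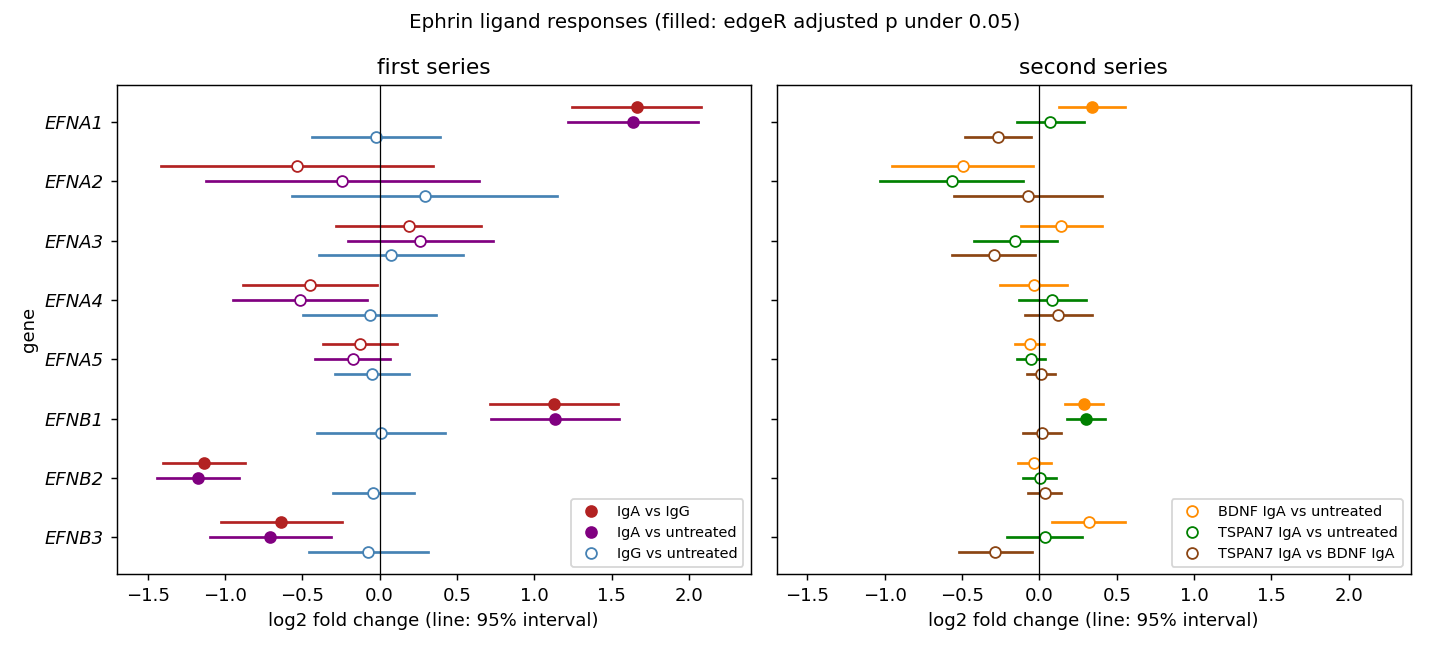
Log2 fold changes of the 8 ephrin ligand genes in the 3 comparisons of each series. Points are edgeR estimates, lines are 95% intervals and filled points have an adjusted p under 0.05. In the first series EFNA1 (1.66 against IgG) and EFNB1 (1.13) lie right of 0 and EFNB2 (-1.14) and EFNB3 (-0.63) left of it. In the second the filled points are EFNB1 with both antibodies (0.29 and 0.30) and EFNA1 with BDNF IgA (0.34).

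Summed over the 8 genes per length, the ephrin ligand level of untreated cells was 59.5 ± 1.11 CPM per kilobase (first series) and 62.3 ± 2.16 (second series). Ephrin-A genes made up 67.8% ± 0.883 and 57.5% ± 0.320 of it. With non-specific IgA the sum was 78.0 ± 11.3 and the ephrin-A share 77.5% ± 3.76, as EFNA1 went from 19.6% ± 0.563 of the pool to 45.7% ± 9.23. Within the IgA group the EFNA1 share ran from 35.1% in replicate 2 to 51.8% in replicate 3. With IgG the sum was 58.1 ± 1.45 and the ephrin-A share 67.8% ± 1.40. BDNF IgA and TSPAN7 IgA left sums of 66.5 ± 3.69 and 64.8 ± 1.33, and ephrin-A shares of 55.9% ± 1.74 and 54.7% ± 0.827. EFNB1 made up 19.2% ± 1.03 of the pool in untreated cells of the second series, 21.9% ± 0.955 with BDNF IgA and 22.8% ± 0.392 with TSPAN7 IgA. These shares describe the groups and were not tested.

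**Figure D4:**
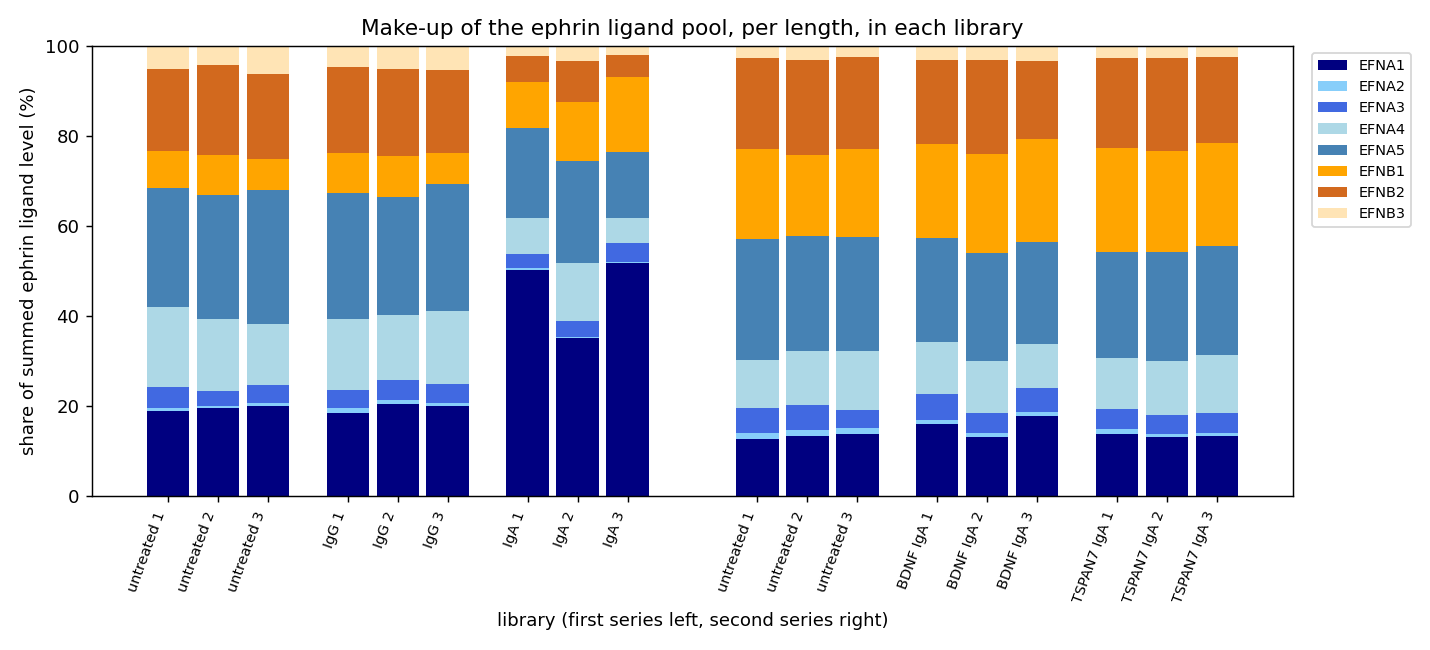
Share of each gene in the summed per-length ephrin ligand level of each library, in percent, stacked to the whole pool. Blue shades are ephrin-A genes and orange shades ephrin-B genes, with the first series on the left. EFNA1 takes 35.1% to 51.8% of the pool in the 3 non-specific IgA libraries, against 18.6% to 20.4% in the IgG and untreated libraries beside them.

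Among 14 Eph receptors, EPHA2, the receptor of ephrin-A1, stood highest per length in untreated cells, at 63.8 ± 4.65 CPM per kilobase (first series) and 43.9 ± 0.649 (second series). EPHB3 (5.55) and EPHB4 (4.28 ± 0.111) were next in the first series, with EPHA1 (4.27 ± 0.492) level with EPHB4. In the second EPHB2 (5.18 ± 0.179) and EPHB4 (5.11 ± 0.211) were next and close together. Other lengths were not tried for receptors, so the order of such near ties is not settled. The second series tested 13 receptors, of which 1 rose and 1 fell with BDNF IgA, and 1 rose and 3 fell with TSPAN7 IgA, where 7.67% and 8.54% of all genes were called. EPHA2 rose in both, by log2 fold changes of 0.19 (SE 0.0485, edgeR adjusted p = 0.0153) and 0.33 (SE 0.0485, edgeR adjusted p = 1.16e-04). Its libraries held 7623 to 7842 normalised counts untreated, 8299.8 to 9244 with BDNF IgA and 9082 to 10068 with TSPAN7 IgA. EPHA3, with a mean of 55.2 normalised counts in untreated cells, fell with BDNF IgA, at a log2 fold change of -1.17 (edgeR adjusted p = 0.0347), though the groups overlapped.

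The receptors that fell with TSPAN7 IgA were EPHA4, EPHB3 and EPHB6, the last a receptor without kinase activity, at log2 fold changes of -0.36, -0.37 and -0.70 (edgeR adjusted p = 0.00306, 0.00847 and 6.13e-04). EPHB3 and EPHB6 also differed between the antibodies and were lower under TSPAN7 IgA, with log2 differences from BDNF IgA of -0.46 and -0.72 (edgeR adjusted p = 0.00208 and 7.61e-04). They were the 2 receptors called of the 13 tested there, beside 7.92% of all genes. Of the 12 receptors tested in the first series, non-specific IgA raised 1 and lowered 3 against IgG, beside 12.6% and 11.6% of all genes. EPHA2 rose by 1.00 (SE 0.0946, edgeR adjusted p = 2.67e-05), and EPHA4, EPHB3 and EPHB6 fell, at -1.04, -1.07 and -0.78 (edgeR adjusted p = 0.00182, 4.50e-04 and 0.0485). IgA replicate 3, the library with the high mitochondrial share, was the lowest IgA library for all of them, EPHA2 included. EPHB6 ranged from 72.7 to 156 normalised counts with IgA and from 167 to 201 with IgG. No receptor was refitted without that library. Against untreated cells 3 rose and 3 fell, beside 12.9% and 12.1% of all genes, and with IgG 0 of 12 were called, as were 0% of all genes. The median log2 fold change of the receptors lay between -0.048 and 0.057 in the 6 comparisons.

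A further list held 17 genes that cut, bind or relay ephrins and their receptors, 16 of them tested in each series. BDNF IgA raised 3 and lowered 0, and TSPAN7 IgA raised 2 and lowered 2, beside 7.67% and 8.54% of all genes called in either direction. ADAM10, a protease that sheds ephrins, rose with both, by 0.22 and 0.21 on the log2 scale (edgeR adjusted p = 0.00261 and 0.00339). The adaptor NCK1 rose by 0.20 and 0.21 (edgeR adjusted p = 0.0180 and 0.0141). INPPL1, which encodes the phosphatase SHIP2 that binds EphA2, rose by 0.22 with BDNF IgA (edgeR adjusted p = 0.00205). TIAM1 and VAV3, exchange factors for Rac-type GTPases, fell with TSPAN7 IgA, at -0.26 and -0.21 (edgeR adjusted p = 0.00601 and 0.00459). VAV3 was the 1 partner of 16 called between the antibodies, lower with TSPAN7 IgA at -0.16 (edgeR adjusted p = 0.0322), beside 7.92% of all genes.

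Non-specific IgA raised 5 and lowered 2 of the 16 partners against IgG, raised 5 and lowered 3 against untreated cells, and with IgG 0 were called. The shares of all genes called in these comparisons were 24.2%, 25% and 0%. RGS3, which binds the tail of ephrin-B through its PDZ domain, rose by 1.13 against IgG, with an SD of 863 on a mean of 1917 normalised counts in the IgA libraries (edgeR adjusted p = 0.00417). SDCBP, the PDZ protein syntenin-1, rose by 0.93 and NGEF, the exchange factor ephexin-1, by 0.67 (edgeR adjusted p = 0.00147 and 0.0435). VAV3 and INPPL1 fell, at -0.94 and -0.63 (edgeR adjusted p = 0.00103 and 8.49e-04). IgA replicate 3, with the high mitochondrial share, was the highest IgA library for RGS3, SDCBP and NGEF and the lowest for VAV3, but not for INPPL1. NGEF ranged from 466 to 896 normalised counts with IgA and from 342 to 448 with IgG. No partner was refitted without that library. The most abundant partners per length in untreated cells were ADAM10 (50.8), INPPL1 (37.3) and ACP1 (20.2) in the first series, and ADAM10 (34.1), NCK2 (25.3) and INPPL1 (25.1) in the second. These orders hold for all exon bases as the length. ACP1 has 4160 exon bases but a longest transcript of 1474, so its rank depends on that choice. The median of the list was 0.24 against IgG, -0.038 with BDNF IgA and -0.019 with TSPAN7 IgA.

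The genes whose pattern was most like that of a member were ranked over the 18 libraries, each value centred on the untreated cells of its own series, among 14584 genes. EFNB1 was followed most closely by SLC44A1 (Pearson r = 0.985), MEF2A (0.979) and MBOAT2 (0.974). For EFNA1 they were IFNGR2 (0.983), NR1D1 (0.983) and MARCKS (0.981), for EFNB2 PPP1R10 (0.993), E2F8 (0.991) and MAT2A (0.990), and for EFNB3 C15orf39 (0.984), CTDSP2 (0.976) and RALGAPA2 (0.959). Within the family r was 0.902 between EFNA1 and EFNB1 and -0.958 between EFNA1 and EFNB2. The 3 non-specific IgA libraries stand apart from the rest in these values, so the figures are a description only.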

How the data were processed

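RNA from 18 OVCAR3 libraries was compared, with groups and replicate numbers from the sample titles. Per the study's methods the authors used cutadapt 1.8.1 for trimming, STAR on GRCh37 for alignment of read pairs and featureCounts for counting unique alignments, while the submitters' processing notes list HTSeq 0.6.1; no strand setting is given. The deposited values are raw counts per gene symbol, without normalization. In the second series 2055 rows that repeated another row exactly were dropped, 1 of them for EFNA3.

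The 9 libraries of a series entered one edgeR 4.0.16 fit (R 4.3.3): filterByExpr with a minimum count of 10, TMM scaling, and a two-sided quasi-likelihood F test, with Benjamini-Hochberg adjustment over all genes of a comparison. SEs were derived from the log2 fold change and F. Normalised counts refer each library to the mean effective size in its series. Levels per length use the union of exons in GENCODE on GRCh37. Within a group no library was a copy of another: chi-square of replicates divided by its degrees of freedom was 4.16 or more. Libraries of different groups were not compared in this way. Reads carry no molecular identifiers and are not independent molecules, so errors come from replicates. The script was tested on simulated data. Deviations from group means of same-numbered IgG and untreated libraries of the first series had r = 0.23, 0.209 and 0.645. With different numbers, IgG 1 and untreated 2 had 0.538, and IgG 2 and untreated 1 had 0.251. The rest of the differently numbered ones had r from -0.593 to -0.312. These values do not settle a pairing by number, no label states one, and the main fit used none. A fit with the replicate block called 0 ligands between these groups, as did the fit without it.

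The members, the lists of receptors, partners and markers, and the alternatives were chosen with earlier results of these data known. All 8 members were described. Receptors and partners were named when called in the second series, when among the 4 largest absolute changes of their list with IgA against IgG, or when among the 3 highest in untreated cells. Similar genes were the 3 with the highest r for each member called in the second series or in both IgA comparisons. As alternatives, DESeq2 1.42.0, further scalings and filters, a stricter threshold, only the 6 libraries compared, repeated rows kept, no mitochondrial or ribosomal RNA genes, a replicate block, other lengths, and leaving out each replicate were tried. They were recorded for the 8 ligands and for counts of all genes called, and not for receptors or partners.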

Additional observations from a re-analysis of the deposited data

Results flagged for a closer look

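For EFNB3, all 3 BDNF IgA libraries lay above the mean of their untreated cells and all 3 non-specific IgA libraries below the mean of theirs, with log2 fold changes of 0.32 and -0.71. For EFNA4, the TSPAN7 IgA libraries lay above their untreated mean, one of them by less than 1 normalised count, and the non-specific IgA libraries below theirs, at 0.084 and -0.51. Of these values only the -0.71 of EFNB3 was called (edgeR adjusted p = 0.0134), and only there did treated and untreated libraries not overlap. Neither difference between the series was tested, and the series are separate count tables.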

How the results depend on the processing

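Of the counts of called ligands, the 1 with TSPAN7 IgA and the 4 in each comparison with non-specific IgA stayed within 1.5 times under all alternatives that kept all libraries. The 2 with BDNF IgA became 1 at an adjusted p under 0.01 and 1 with only the 6 libraries compared. The 0 between TSPAN7 IgA and BDNF IgA became 1 (EFNA1, lower) without a filter on low counts. The cause was not tested. Leaving out each replicate in turn gave 1 to 3 ligands with BDNF IgA, 1 to 2 with TSPAN7 IgA, 0 to 3 between the antibodies, 3 to 5 with IgA against IgG and 3 to 5 against untreated cells, and 0 with IgG.

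Values that changed sign were all small. With library totals as the only scaling EFNA3 was -0.065 with IgA against IgG, EFNA1 0.0035 with IgG and EFNA5 -0.0055 between the antibodies. With repeated rows kept, EFNA5 was -0.0039 between the antibodies and EFNB2 -0.0024 with TSPAN7 IgA, where it was also -0.0029 with a filter at 50 counts and -0.00017 with 6 libraries. Leaving out 1 replicate gave ranges across 0: EFNA3 with IgA against IgG, -0.012 to 0.33; with IgG, EFNA1 -0.058 to 0.032, EFNA3 -0.052 to 0.20, EFNA4 -0.17 to 0.053, EFNB1 -0.094 to 0.10 and EFNB3 -0.20 to 0.073; with BDNF IgA, EFNA4 -0.14 to 0.058; with TSPAN7 IgA, EFNA4 -0.019 to 0.18, EFNB2 -0.038 to 0.032 and EFNB3 -0.015 to 0.14; between the antibodies, EFNA2 -0.42 to 0.081, EFNA5 -0.015 to 0.027 and EFNB1 -0.026 to 0.080.

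Library totals moved the all-gene median, on the log2 scale, to -0.25 with IgA against IgG and -0.22 against untreated cells. Of all genes, 873 were then called higher and 3631 lower against IgG, in place of 2265 and 2095, and 1001 and 3296 against untreated cells, in place of 2316 and 2187. With only the 6 libraries compared, genes called lower numbered 1326 in place of 2095 with IgA against IgG and 1168 in place of 764 with TSPAN7 IgA, and those higher with TSPAN7 IgA than BDNF IgA numbered 427 in place of 641. In the pairs of groups other than IgG and untreated cells of the first series, at least 1 same-numbered pair of libraries had r at or under 0.1. Values ran from -0.13 to 0.0618 and from -0.109 to 0.279, so those numbers were not taken as pairs either. A fit with the replicate block called 4, 4, 0, 2, 1 and 0 ligands in the 6 comparisons, the same counts as without it. With 14 to 98 reads a library in both series, EFNA2 had the least precise values of the 8.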
